A study of Mus musculus with 4 samples.

Results

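The immediate early transcription factors described here are 10 genes: the zinc finger factors Egr1, Egr2 and Egr3, the FOS family members Fos, Fosb and Fosl2, the JUN family members Jun, Junb and Jund, and the growth-factor-inducible regulator Ier2. They were found through the transcript identifiers of the array probes, which matched 16 probes to the 10 genes, out of 23451 genes that had a value. The list was chosen by, and with knowledge of, the processed intensities of all 4 arrays, so every value below is a description and none is tested. The cells were dendritic cells grown from femur marrow of wild-type male C57BL/6J mice in medium with 10% serum and 10 ng/ml GM-CSF, and collected on day 6. The 4 groups were cells given LPS (100 ng/ml) with LA (20 mM) for 4 h, cells given LA (20 mM) alone for 4 h, cells given LPS (100 ng/ml) alone for 4 h, and cells in medium without stimulation, for which no time is given. LA is written L-(+)-LA in the labels, the series title speaks of lactate, and no pH is given. Each group was 1 array, and the labels do not say how many mice gave the cells.

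Immediate early genes are switched on within minutes of a stimulus without new protein synthesis, mostly through MAP kinases that activate serum response factor and its ETS-family partners, or through CREB. Their transcripts are short-lived, so their level reports recent signalling. EGR proteins bind GC-rich sites as single zinc finger proteins, while FOS proteins bind DNA as dimers, typically with JUN proteins, forming the factor AP-1. In dendritic cells and macrophages these factors act beside NF-kB in the early response to LPS, which is sensed by TLR4.

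Signals are processed intensities of single-colour arrays, and a level is the log2 of that intensity over the 75th percentile of its array. A difference is 1 level minus another on the log2 scale, so 1 unit is 2-fold, and the levels of different probes are not compared with each other. There were 59305 spots that were not controls, and 56.5% to 64.1% of them were well above background. All 4 arrays lay on 1 slide. Each gene stands for its brightest probe, and for all 10 genes that probe was well above background on all 4 arrays. With no replicates the only error that can be given is that between spots: 300 probes printed 10 times had SDs that put an error of 0.0688 on a difference for signals over 1000, of 0.0955 for signals of 100 to 1000, and of 0.44 for signals under 100. This error leaves out labelling, culture and animal. Of 16 dendritic cell markers, 14 were well above background on all 4 arrays, and Xcr1, a receptor of cross-presenting dendritic cells, was above it on none.

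Egr1, Fos and Ier2 stood high on both arrays with LA, whether or not LPS was present, and low with LPS alone. The JUN genes and Fosb did not share this pattern. In LA against medium, 3 of the 10 genes (Egr1, Fos and Ier2) were at least 2-fold higher and 0 lower. There 3.12% of 14555 measured genes were that much higher and 3.33% lower (4.25% and 2.23% with the scaling of the authors' table). Shares with the authors' scaling are over the 13387 genes measured with that table in every comparison. In LPS with LA against LPS, 6 of the 10 were at least 2-fold higher (the same 3 with Egr2, Egr3 and Fosl2) and 0 lower, against 11.5% and 12.5% of 13631 measured genes (22.7% and 6.89% with the authors' scaling). In LPS against medium, 0 were higher and 2 lower (Egr2 and Fosl2), against 8.14% and 7.5% of 13592 genes (5.53% and 12.8% with the authors' scaling). In LPS with LA against LA, 0 of the 10 passed 2-fold either way, against 0.906% higher and 1.5% lower of 14905 genes. LPS with LA against medium gave 3 higher (Egr1, Fos and Ier2) and 0 lower, against 3.0% and 3.98% of 14520 genes (4.62% and 2.42% with the authors' scaling). Because the signals of these arrays chose the genes, nothing is read from these shares. Each value comes from the RNA of a whole culture, in which more cells expressing a gene and more RNA per cell cannot be told apart.

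**Figure D1:**
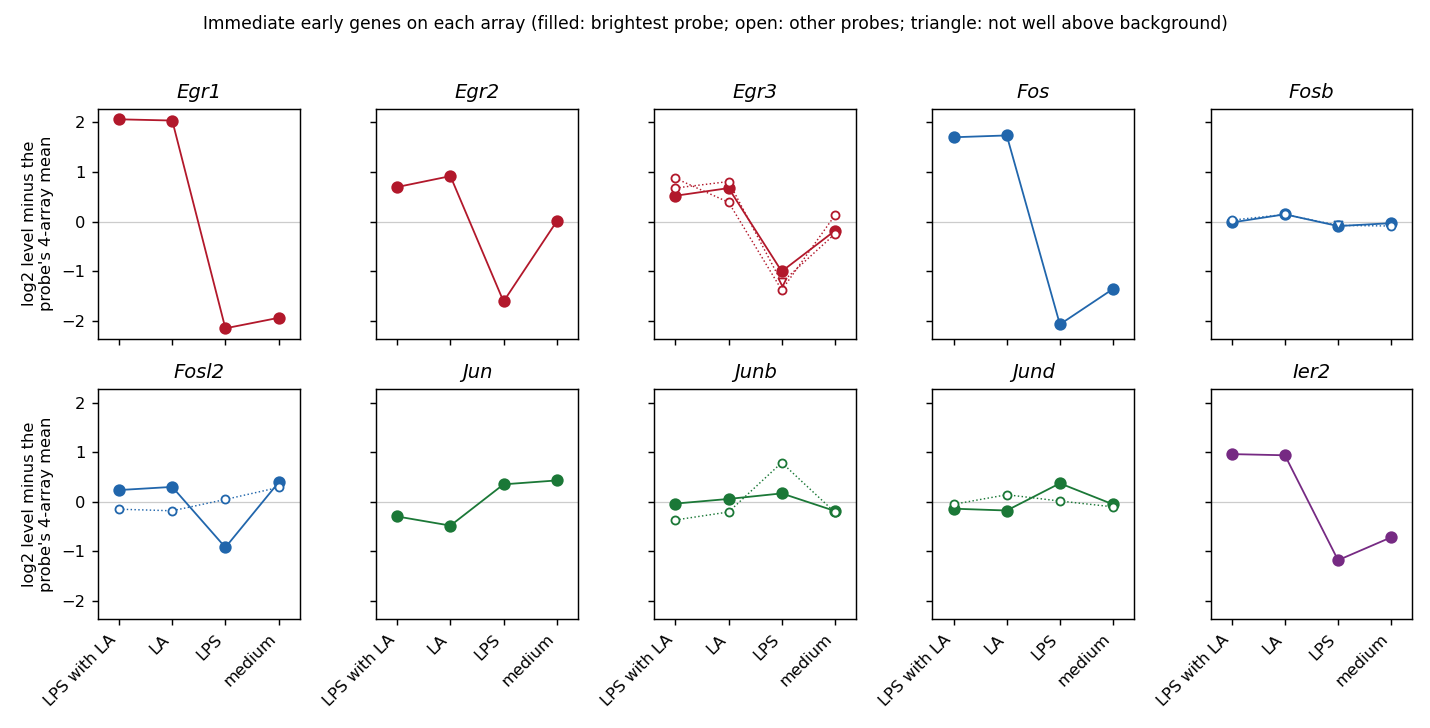
Log2 level of every probe of the 10 genes on each array, minus the mean of that probe over the 4 arrays (vertical axis, log2 units), for LPS with LA, LA, LPS and medium (horizontal axis). Filled points are the brightest probe, open points the other probes, and triangles probes not well above background. Egr1, Fos and Ier2 lie high on both arrays with LA and low on both without it, while Jun runs the other way and Fosb is nearly level.

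Promoter sequences are shown for 4 genes that cover the range of these patterns: Fos and Egr2, which stood higher with LA, Fosb, which was level, and Jun, which stood lower. The sequences are from RefSeq on the GRCm38.p6 build and run from 250 bases before to 50 bases after the transcript start, 5′ to 3′ along the gene. Promoters of 7 of the 10 genes were searched, and none is given for Egr1, Egr3 or Ier2. Their absence here does not mean that these genes lack an annotated promoter. Capitals mark matches, on either strand, to the CArG box (the site of serum response factor), the EGR site GCGNGGGCG, the CRE half-site TGACG (part of the CREB site TGACGTCA) and the TATA box TATAAA. The full CREB site and the AP-1 site TGANTCA were also searched.
Fos, chr12:85473640-85473939, plus strand: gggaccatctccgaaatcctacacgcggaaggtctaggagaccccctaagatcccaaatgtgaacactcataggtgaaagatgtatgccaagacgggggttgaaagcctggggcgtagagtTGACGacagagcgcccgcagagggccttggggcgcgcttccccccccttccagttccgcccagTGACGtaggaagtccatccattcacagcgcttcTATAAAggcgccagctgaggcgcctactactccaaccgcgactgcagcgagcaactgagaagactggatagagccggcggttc
Egr2, chr10:67537619-67537918, plus strand: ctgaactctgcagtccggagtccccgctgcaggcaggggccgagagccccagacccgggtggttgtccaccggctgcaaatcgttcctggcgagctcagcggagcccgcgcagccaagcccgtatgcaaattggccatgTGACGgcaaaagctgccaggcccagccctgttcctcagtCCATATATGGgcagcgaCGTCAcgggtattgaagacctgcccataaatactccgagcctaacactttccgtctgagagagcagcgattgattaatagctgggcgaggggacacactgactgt
Fosb, chr7:19309996-19310295, minus strand: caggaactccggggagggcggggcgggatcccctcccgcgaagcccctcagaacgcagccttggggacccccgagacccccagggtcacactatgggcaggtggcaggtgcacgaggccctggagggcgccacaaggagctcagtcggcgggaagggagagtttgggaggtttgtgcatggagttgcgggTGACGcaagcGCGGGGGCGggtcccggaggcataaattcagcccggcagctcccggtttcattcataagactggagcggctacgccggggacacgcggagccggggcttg
Jun, chr4:95052173-95052472, minus strand: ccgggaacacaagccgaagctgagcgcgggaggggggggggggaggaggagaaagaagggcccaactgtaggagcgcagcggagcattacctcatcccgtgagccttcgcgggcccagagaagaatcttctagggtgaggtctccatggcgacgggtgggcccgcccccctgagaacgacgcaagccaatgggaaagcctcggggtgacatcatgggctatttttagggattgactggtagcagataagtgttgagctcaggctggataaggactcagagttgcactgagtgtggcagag

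Egr2, which has several annotated starts, is shown at the start whose window runs from base 67537619. Its window holds a CArG box from position -72 to -63, counted back from the first transcribed base, with CRE half-sites starting at -111 and -55. The CArG box was found in 1.63% of 32851 promoter windows of the same length. Among the 7 genes searched, the other windows that held it also belonged to Egr2, at 3 more of its 5 starts. Those from bases 67537620 and 67537680 overlap the window shown and hold the same box. The one from base 67537316 holds a different box. Fos has CRE half-sites starting at -129 and -66 and a TATA box from -33 to -28. CRE half-sites were present in 20.8% and TATA boxes in 13.6% of all windows. Fosb has a CRE half-site starting at -60 and, overlapping neither it nor another match, an EGR site from -50 to -42, a motif that 5.55% of all windows hold. Fosl2 has an EGR site from -79 to -71. Junb has a CRE half-site starting at -106 and the letters of a TATA box from 1 to 6, within the transcript. The Jun and Jund windows held none of the 6 motifs. The full CREB site (1.79% of all windows) and the AP-1 site (7.81%) were in no window of the 7 genes searched. No window of Egr1, Egr3 or Ier2 was searched. A match is a description of the letters and not evidence of binding, and a missing match says nothing of sites outside these 300 bases.

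Egr1 encodes the founding EGR factor, an activator of growth and inflammatory genes, and had the widest range of the 10 genes over the 4 arrays, 4.22 log2 units. Its processed intensity was 9739 with LPS and LA and 10387 with LA, against 625 with LPS and 744 in medium. The levels on the log2 scale were 6.06 with LPS and LA, 6.04 with LA, 1.85 with LPS and 2.06 in medium, so both arrays with LA lay far above both without it. Relative to medium, Egr1 was 15.8-fold higher with LA and 16.1-fold higher with LPS and LA. Against LPS alone, LPS with LA was 18.6-fold higher. In LPS with LA against medium no other measured gene had a larger rise, and 1 gene exceeded Egr1 in each of the LPS with LA against LPS and the LA against medium comparisons. The LPS array differed from medium by -0.21 log2 units and the LPS with LA array from the LA array by 0.02.

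Egr2, an EGR factor that restrains T cell activation and marks macrophage states, had a processed intensity of 3781 with LPS and LA, 4778 with LA, 910 with LPS and 2866 in medium. The LPS array was the lowest, 3.06-fold below medium, and LPS with LA was 4.96-fold above LPS. LA exceeded medium by 0.91 log2 units, just short of 2-fold. Egr3, a relative of Egr2 in lymphocyte tolerance, followed the same order at lower signal. Its brightest probe read 201 with LPS and LA, 243 with LA, 83.3 with LPS and 151 in medium. The log2 differences of this probe were 0.86 for LA against medium, 1.53 for LPS with LA against LPS and -0.82 for LPS against medium. Another Egr3 probe gave 0.26, 2.25 and -1.50 for the same comparisons. The dimmest probe gave 1.06 for LA against medium and was not well above background on the LPS array. All 3 probes were thus lowest on the LPS array, and they differed in how far LA lay above medium. Egr2 at 0.91 and Egr3 at 0.86 were the genes just under 2-fold in LA against medium, and Ier2 at 1.65 was the nearest above it.

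Fos, the prototype AP-1 subunit, gave processed intensities of 514 with LPS and LA and 573 with LA, against 44.8 with LPS and 75.6 in medium. Its levels were 1.82, 1.86, -1.95 and -1.24 log2 units on these arrays, and the arrays with LA did not overlap those without it. Fos was 8.55-fold higher with LA than in medium and 8.34-fold higher with LPS and LA than in medium. Between LPS with LA and LPS the difference was 3.77 log2 units, or 13.7-fold. The medium and LPS signals were under 100, where spots scatter most, and with normexp background correction the Fos difference was 2.41 in LA against medium and 2.68 in LPS with LA against LPS. Only 3 genes rose further than Fos in LA against medium, and 4 in LPS with LA against LPS.

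Fosb, an AP-1 subunit usually induced along with Fos, was level. Its processed intensity was 552 with LPS and LA, 672 with LA, 627 with LPS and 671 in medium, and its log2 levels spanned 0.24. The second Fosb probe spanned 0.23 and was not well above background on the LPS array. Fosl2 encodes Fra-2, a FOS protein that lacks the strong activation domain of Fos, and its probes disagreed. The brightest read 3085 with LPS and LA, 3498 with LA, 1650 with LPS and 4203 in medium, so the LPS array stood 2.48-fold below medium and LPS with LA 2.23-fold above LPS. The other Fosl2 probe, at 673, 714, 920 and 1118 on the same arrays, differed by -0.24 log2 units for LPS against medium and by -0.20 for LPS with LA against LPS. With the mean of both probes the Fosl2 differences were -0.78 and 0.48, under 2-fold. Whether Fosl2 differed between these arrays thus depends on the probe.

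The JUN genes, whose proteins supply the partner for FOS in AP-1, did not share the rise of Fos. Jun read 240 with LPS and LA and 229 with LA, against 449 with LPS and 487 in medium. Both arrays with LA were the lower ones, and the log2 differences were -0.91 for LA against medium and -0.65 for LPS with LA against LPS, each under 2-fold. Junb, a JUN protein with roles in myeloid cells, gave very strong signals, 35919 with LPS and LA, 41597 with LA, 49408 with LPS and 39728 in medium, a span of 0.35 log2 units. Its second, much dimmer probe read 176, 214, 469 and 241 on these arrays and put LPS 1.0 log2 unit above medium and LPS with LA 1.16 below LPS. Jund, a JUN protein often expressed without stimulation, read 2934 with LPS and LA, 3104 with LA, 4991 with LPS and 3822 in medium, a span of 0.55. Its second probe spanned 0.24. The brightest Junb and Jund probes were highest on the LPS array, on which those of the EGR genes, Fos, Fosl2 and Ier2 were lowest. For Junb this order is set by the scaling, since with the authors' scaling LPS with LA lay 0.22 log2 units above LPS, and for Jund quantile normalization brought that difference to 0.00.

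Ier2, a nuclear protein of the immediate early group without a known DNA-binding domain, read 444 with LPS and LA and 474 with LA, against 120 with LPS and 170 in medium. The arrays with LA lay 3.15-fold above medium for LA and 4.41-fold above LPS for LPS with LA. Its log2 difference between LPS and medium was -0.46, and between LPS with LA and LA it was 0.02.

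**Figure D2:**
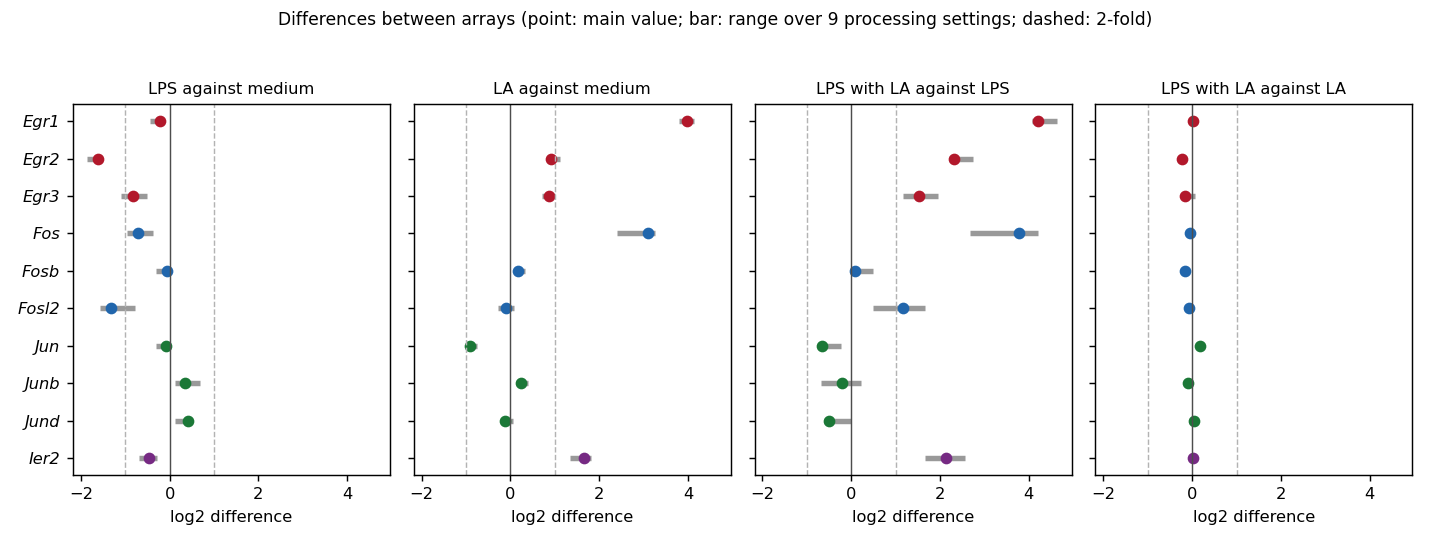
Log2 difference of each of the 10 genes (rows) in 4 comparisons (panels), with log2 units on the horizontal axis and dashed lines at 2-fold. Points are the values given in the text and grey bars the lowest to highest value over 9 processing settings. Egr1, Fos and Ier2 stay beyond 2-fold in both LA comparisons under every setting, and all 10 genes lie close to 0 in LPS with LA against LA.

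The LA difference can be taken with LPS (LPS with LA against LPS) and without it (LA against medium), from pairs that share no array. Egr1 lay at 4.22 log2 units with LPS and 3.98 without it, Fos at 3.77 with and 3.10 without, and Ier2 at 2.14 with and 1.65 without. These were the 3 of the 10 genes at least 2-fold higher in both, a pattern that 132 of 13368 genes measured on all 4 arrays (0.987%) showed. None of the 10 was at least 2-fold lower in both, as 1.98% of those genes were. For Egr2 the LA difference was larger by 1.40 log2 units with LPS than without it, for Fosl2 by 1.25, for Fos by 0.68 and for Egr3 by 0.66. Egr1 differed by 0.24 and Ier2 by 0.49. These are values of the brightest probes, and the other Fosl2 probe gave 0.27 and the other Egr3 probes 1.99 and 0.85, so the order of these genes depends on the probe. In each of these 6 genes, by its brightest probe, LPS alone lay below medium while LPS with LA lay within 0.22 log2 units of LA. The median difference of the 10 genes was 0.55 in LA against medium and 1.34 in LPS with LA against LPS, beside 0.02 and 0.00 over all measured genes. In LPS against medium it was -0.34 beside 0.00.

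**Figure D3:**
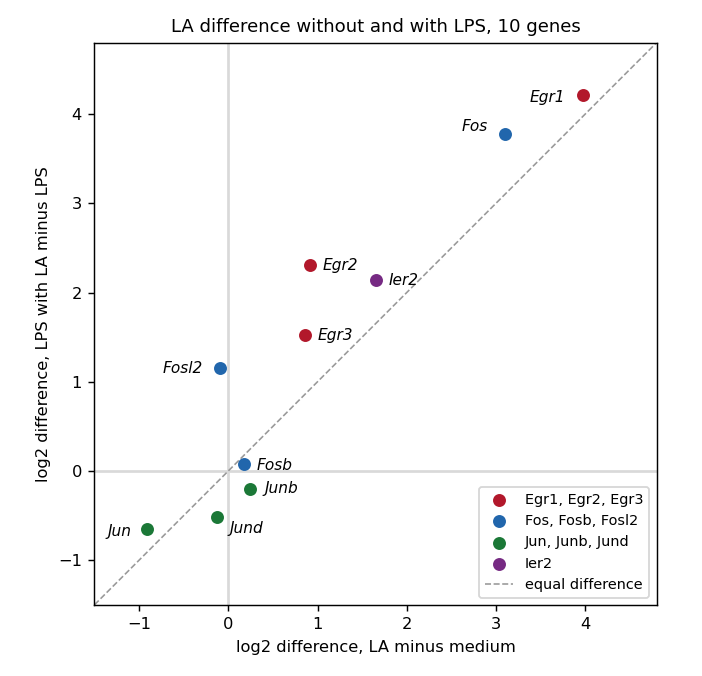
Log2 difference of the 10 genes for LA minus medium (horizontal axis) and for LPS with LA minus LPS (vertical axis), each point 1 gene coloured by family and the dashed line marking equal differences. Egr1 and Fos lie at the upper end of both axes, Egr2, Egr3 and Fosl2 lie above the line, and Jun lies below 0 on both.

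Among 13358 other genes well above background on all 4 arrays, likeness to Egr1 was measured as the root mean square difference of levels centred on the mean of each gene over the 4 arrays. Genes with Gm, Rik, LOC or Olfr symbols count in that number but were left out before the nearest genes below were picked. Of the rest of the 10, Fos lay closest at 0.38 log2 units and Ier2 lay at 1.10. The nearest genes outside the 10 were Rpph1, the RNA of ribonuclease P (0.78), Dusp6, a phosphatase that inactivates ERK and is itself induced by ERK signalling (0.82), Rnu3b1, a small nucleolar RNA (0.82), Lpar5, a lysophosphatidic acid receptor (0.87), and Map11 (0.93). None of them matched Egr1 as closely as Fos did. The other Map11 probes gave 0.93 and 0.82 in LA against medium, where its brightest gave 1.83, so its likeness depends on the probe. The genes nearest to the median pattern of the 10, each of them lowest on the LPS array, were Myo5a, Myg1, Def8, Tfb2m and Zfp934, each 0.06 away, although other probes of Myo5a, Tfb2m and Zfp934 differed from it.

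A list of 33 other immediate early genes gives the values of the wider class. Among the 31 measured in LA against medium, 6 passed 2-fold upward and 5 downward, leaving 20, and the median difference was 0.06 log2 units. Of all measured genes 3.12% were higher and 3.33% lower there. Dusp6 (2.28) and Myc, a growth regulator (1.94), were highest. The other 4 above 2-fold, named after their values were seen, were Trib1 (1.35), Sgk1 (1.26), Csrnp1 (1.19) and Dusp1 (1.18). At the other end were Klf10, a TGF-beta-inducible repressor (-2.06), and Atf3, a stress-induced repressor of inflammatory genes (-1.98). Fosl1, the fourth FOS family gene, named after its value was seen, was above background in medium only and at least 2.43-fold lower with LA.

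With LPS alone none of the 10 genes was 2-fold higher. Of the 30 measured genes of this list 11 were, against 1 lower and 18 between (median 0.36). Over all measured genes 8.14% were higher and 7.5% lower in LPS against medium. The 11 genes were led by Dusp2, a nuclear MAP kinase phosphatase (5.50), and Csrnp1, a nuclear protein (4.49). Arc (-1.17) and Klf10 (-0.96) were lowest. With LPS and LA against LPS, 4 of 30 were higher, 12 lower and 14 neither (median -0.68), or 8 higher and 10 lower with the authors' scaling. Of all measured genes 11.5% were higher and 12.5% lower there (22.7% and 6.89% with the authors' scaling). Plk3, not above background with LPS, was at least 2.59-fold higher in that comparison. Dusp6 (2.67) and Myc (1.76) were highest, and Dusp2 (-5.60) and Plk2, a polo-like kinase (-4.08), were lowest. Levels of Dusp2 were -1.74 with LPS and LA, -2.36 with LA, 3.86 with LPS and -1.65 in medium, so the LPS array stood apart from the other 3. Dusp6 stood at 3.21 with LPS and LA and 3.34 with LA, against 0.55 with LPS and 1.06 in medium. The Dusp6 arrays thus divided by LA, as those of Egr1 did.

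**Figure D4:**
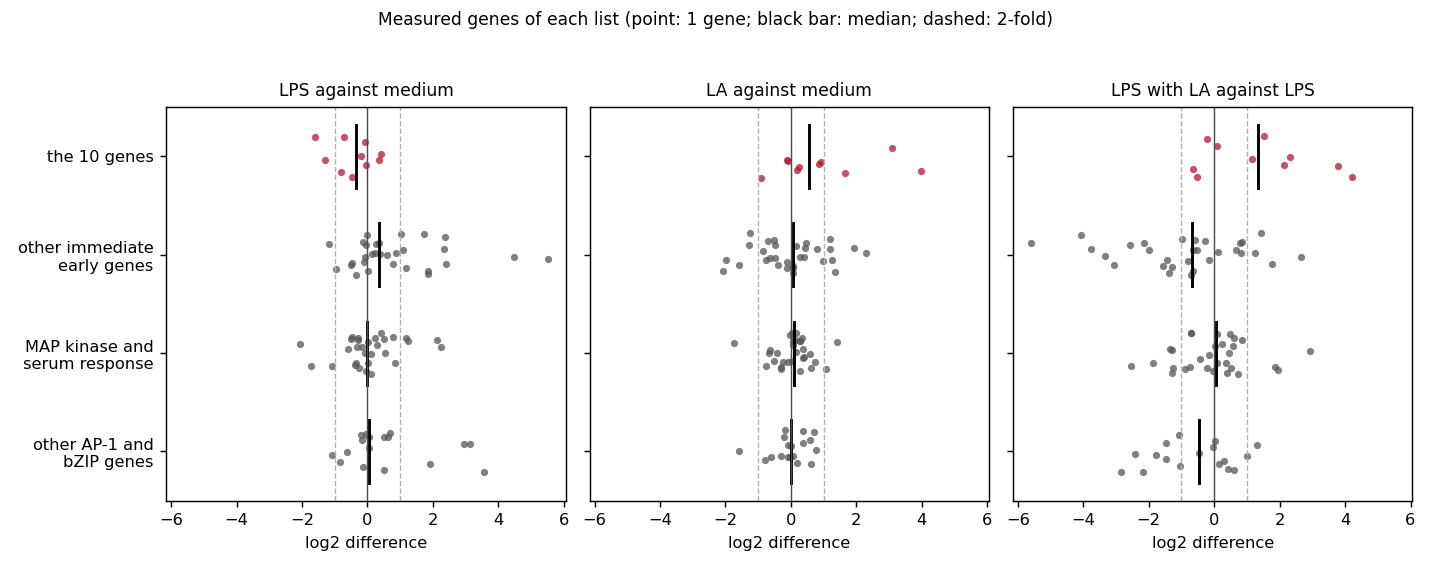
Log2 difference of each measured gene (points) in the 10 genes described here and in 3 other lists (rows), with 1 panel for each of 3 comparisons, with black bars at the medians and dashed lines at 2-fold. In LPS with LA against LPS the median of the 10 genes is 1.34 and that of the other immediate early genes -0.68.

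Genes of the MAP kinase and serum response pathway, which act upstream of Egr1 and Fos, are given for comparison. Of 30 measured genes 2 passed 2-fold upward, 1 downward and 27 neither way in LA against medium, where 3.12% of all measured genes were higher and 3.33% lower. Spry1, an inhibitor of receptor tyrosine kinase signalling that was seen only as a bound, was at least 2.58-fold lower there. Map2k6, a p38 kinase activator (1.40), and Rps6ka1, the ERK-activated kinase RSK1 (1.08), were highest. Crem, a CREB family factor (-1.73), and Mapkapk2, a kinase downstream of p38 (-0.76), were lowest. In LPS against medium 4 were higher, 3 lower and 23 neither, beside 8.14% of all measured genes higher and 7.5% lower. Map3k8, a kinase that activates the ERK pathway, was at least 5.75-fold higher there by its bound. Spred1, an inhibitor of RAF activation (2.25), and Mapkapk2 (2.13) were highest, and Mrtfb, a serum response factor coactivator (-2.06), and Rps6ka1 (-1.74) were lowest. The 4 Mrtfb probes ranged from -2.06 to -0.17 there. In LPS with LA against LPS 3 were higher, 6 lower and 21 neither. With the authors' scaling 6 were higher and 2 lower of 29. Of all measured genes 11.5% were higher and 12.5% lower there (22.7% and 6.89% with the authors' scaling). Spry1 was at least 2.04-fold lower by its bound. Rps6ka1 (2.94) and Mrtfb (1.96, with another probe at -0.44) were highest and Mapkapk2 (-2.54) and Spred1 (-1.87) lowest.

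Among other bZIP genes, many of whose proteins can pair with JUN or FOS proteins, more stood lower than higher when LA was added to LPS. Of 17 measured in LPS with LA against LPS, 8 passed 2-fold downward, 1 upward and 8 neither way (6 downward and 3 upward with the authors' scaling). Over all measured genes 12.5% were lower and 11.5% higher (6.89% and 22.7% with the authors' scaling). Batf (-2.85) and Batf2 (-2.41), AP-1 factors of dendritic cell development and interferon responses, were lowest, and Atf7 (1.32) and Cebpd (1.0) were highest. In LPS against medium 4 were higher, 1 lower and 12 neither, beside 8.14% of all measured genes higher and 7.5% lower. There Batf was at 3.56, Batf2 at 3.12, Atf7 at -1.09 and Maf, a macrophage factor, at -0.83. In LA against medium 0 of 18 were higher, 1 lower and 17 neither, beside 3.12% of all measured genes higher and 3.33% lower. Fosl1, which this list also holds, was lower by the bound given above. Batf2 (0.75) and Cebpd (0.69) were highest, and Nfil3, a repressor needed for several immune lineages (-1.59), and Batf3, a factor of cross-presenting dendritic cells (-0.79), were lowest. Of a small list around the EGR factors 4 of 5 genes had a probe. Nab2, a corepressor that EGR proteins induce and bind, lay at 1.01 with LPS and LA and 0.85 with LA, against 1.64 with LPS and 1.79 in medium. Its difference in LA against medium was -0.94, opposite in sign to that of Egr1. Sertad1 lay at -0.99, Cited2 at 0.05 and Egr4, the fourth EGR gene, at 0.08 in the same comparison. In LPS against medium Cited2 was at 2.73, Egr4 at 0.26, Nab2 at -0.15 and Sertad1 at -0.35. In LPS with LA against LPS Egr4 was at -0.17, Nab2 at -0.63, Sertad1 at -0.64 and Cited2 at -2.30.

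Markers of dendritic cells and of other cells that such cultures can hold are given for the LA comparisons, beside 3.12% of all measured genes at least 2-fold higher and 3.33% lower in LA against medium. In LPS with LA against LPS 11.5% of all measured genes were higher and 12.5% lower (22.7% and 6.89% with the authors' scaling). Neutrophil and granulocyte precursor markers were above background on all 4 arrays in 16 of 16 genes, with a median level of 4.12 with LPS and LA, 4.02 with LA, 3.16 with LPS and 3.51 in medium. Their median difference was 0.62 in LA against medium, with 1 of 16 at least 2-fold higher, and 0.96 in LPS with LA against LPS, with 8 of 16 higher. The lowest was Csf3r (-0.05) and the highest Cxcr2 (1.18) in LA against medium. For mast cells, basophils and eosinophils the median marker difference was 0.52 in LA against medium (3 of 13 higher), from Kit (-0.51) to Epx (1.74), and macrophage and monocyte markers one of -0.39 (1 of 16 higher, 2 lower), from Cx3cr1 (-1.58) to Mertk (1.03). Of 15 macrophage and monocyte markers, 4 were lower and 1 higher in LPS with LA against LPS, with a median of -0.69. Dendritic cell markers had a median of -0.35 (1 of 15 higher, 1 lower), from H2-Aa (-1.16) to Dpp4 (1.22, with its other probe at -1.48). Of 14 dendritic cell markers, 6 were lower and 1 higher in LPS with LA against LPS, with a median of -0.42. Among lymphocyte and NK markers Ms4a1 and Ncr1 were above background on no array, and among fibroblast and endothelial markers Lum and Cdh5 were not. Their medians in LA against medium were 0.12 and -0.51 over 7 measured genes each, from Cd3d (-0.97) to Klrb1c (1.82) and from Sparc (-1.33, with its other probe at -0.25) to Pecam1 (0.46). Erythroid markers had a median of 0.20 over 5 genes, from Slc4a1 (-0.40) to Alas2 (0.97). The part of these cells in the values of Egr1, Fos and the other 8 genes was not tested.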

How the data were processed

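Total RNA was labelled with Cy3 and hybridised to 4 single-colour Agilent arrays, 1 per group. Per the file headers, the intensity used here is what Feature Extraction 12.0.3.1 writes as its processed signal, a linear background-subtracted value with no scaling across arrays. The submitters' processing notes give version 11.5.1.1. A second deposited table holds intensities of 31529 spots that are the same signals multiplied by a constant for each array (9.30 for LPS with LA, 8.38 for LA, 5.82 for LPS and 6.67 for medium). Its values are linear and not centred, with medians of 1189, 1164, 873 and 1038 in that order.

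Outlier spots were left out (129 to 154 per array), and 0 were saturated. The 75th percentile that set the scale was 146 for LPS with LA, 158 for LA, 174 for LPS and 179 for medium. Through unversioned RefSeq transcripts (GRCm38.p6), 33767 of 56605 probes matched 1 gene symbol and 22838 none. The headers name mm9 as the build, and no array coordinates are printed. Genes count as measured where both arrays compared had the brightest probe well above background. Where that held on 1 array, the dim side was set to its own value or to the dimmest signal well above background, whichever was higher, and the fold is given as at least N-fold. With 1 array per group there is no test, and precision is limited by how few arrays there are.

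The members, the 4 gene lists and the 7 marker lists were chosen with earlier results of these data known. The text names all members, the 2 highest and the 2 lowest measured genes of each list in each of 3 comparisons, the 5 genes most like the member with the widest range, the 5 most like the members' median, and the ends of each marker list for LA against medium. Genes with Gm, Rik, LOC or Olfr symbols were left out of both groups of 5. Alternatives covered the scaling (median, percentile over detected probes, quantile, the authors' table), normexp on the median spot signal with offset 50, the filter on dim probes, the choice of probe and a 1.5-fold threshold. The code that makes the calls was tested on simulated data. A gene of the bZIP list is not reported by name or value here. Software was R 4.3.3, limma 3.58.1, Python 3.11.15, numpy 2.4.6, pandas 2.3.3 and matplotlib 3.10.9.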

Additional observations from a re-analysis of the deposited data

Results flagged for a closer look

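Of the genes named from the gene and marker lists and above background on all 4 arrays, 5 had LA differences of opposite sign with and without LPS, each at least 1.5-fold. The difference between these effects was not tested, since each rests on 1 array per group. Csrnp1 lay at -3.78 log2 units in LPS with LA against LPS and at 1.19 in LA against medium. Its levels were -1.10 with LPS and LA, -0.62 with LA, 2.67 with LPS and -1.82 in medium. Batf2 lay at -2.41 in LPS with LA against LPS and at 0.75 in LA against medium, with levels of -2.50 with LPS and LA, -2.46 with LA, -0.09 with LPS and -3.21 in medium. The dendritic cell marker Dpp4 lay at -1.36 with LPS and 1.22 without it, by its brightest probe. The other Dpp4 probe, above background on 3 arrays, gave 0.14 and -1.48. The macrophage markers Mertk and Cx3cr1 lay at -0.78 and 0.67 with LPS, against 1.03 and -1.58 without it. Mertk also had LPS differences of opposite sign, -0.86 with LA and 0.95 without it. None of the 10 immediate early genes showed either pattern at this size.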

How the results depend on the processing

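Of 90 counts of the 10 genes under alternatives, 83 stayed within 1.5 times the value reported and 7 did not. With the authors' deposited scaling 5 genes in place of 3 were at least 2-fold higher in LA against medium, as Egr2 and Egr3 passed the threshold. A threshold of 1.5-fold gave 5 higher and 1 lower (in place of 3 and 0) in LA against medium. At 1.5-fold, 11.2% of all measured genes were higher there and 10.8% lower. In LPS with LA against LPS 1 was lower in place of 0, beside 22.2% of all measured genes higher and 21.8% lower. In LPS against medium 4 were lower in place of 2, beside 15.8% higher and 18.1% lower. LPS with LA against medium gave 5 higher and 1 lower in place of 3 and 0, beside 10.9% higher and 12.5% lower. Of 440 single differences and medians under alternatives, 172 moved by more than 0.0736, the error between spots pooled over all signals. Of those that were 2-fold or more, 0 changed sign. For signals under 100 the error between spots is 0.44, so a move counted there can lie within it. The lowest and highest differences over 9 settings in LA against medium were 3.81 and 4.14 for Egr1, 2.41 and 3.25 for Fos, and 1.34 and 1.81 for Ier2. Fosl2 in LPS with LA against LPS ranged from 0.48 to 1.66 and is the gene that lost its 2-fold difference, when its probes were averaged. In LPS against medium averaging also took Fosl2 under 2-fold (-0.78) and brought Egr3 past it (-1.10). With the authors' scaling Egr3 lay at -1.06 in LPS against medium, and 3 genes were lower in place of 2. The authors' scaling moves the median of all genes by -0.24 log2 units in LPS against medium and 0.15 in LA against medium. The move was 0.43 in LPS with LA against LPS and 0.18 in LPS with LA against medium. These values, like the counts below with the authors' scaling, are over 13387 genes, so they also hold a change in the genes measured. Over all genes, normexp gave 72 higher and 165 lower in LA against medium in place of 454 and 484, 683 and 317 in LPS against medium in place of 1107 and 1019, and 639 and 1109 in LPS with LA against LPS in place of 1567 and 1698, where the authors' scaling gave 3043 and 923. The cause was not tested. Under some settings the sign of Junb, Jund and Fosb, all under 2-fold, turned in LPS with LA against LPS. No paired analysis was possible because each group has 1 array, and for the same reason no array could be left out.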
